A study of Mus musculus with 12 samples.

Results

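The comparison described here is the conditional loss of a single Trp53 allele in otherwise normal newborn mouse epidermis. It sets the 3 libraries labelled Trp53 het against the 3 control libraries, chosen by genotype label, which makes 6 of the 12 libraries in the series. Control mice carried K14-Cre, a transgene in which the keratin 14 promoter drives Cre recombinase in basal keratinocytes and the cells they give rise to. Trp53 het mice carried K14-Cre with a single floxed and a single normal Trp53 allele (K14-Cre/Trp53 +/flox), so that Cre could remove only the floxed copy, and only in cells with a history of keratin 14 expression. The other 6 libraries came from mice with K14-Cre and floxed Llgl1 and Llgl2, with both Trp53 alleles intact (Llgl cKO) or with a floxed Trp53 allele (Llgl cKO Trp53 het). They give the same Trp53 contrast in animals that share no library with the main comparison. Every group, controls included, carried K14-Cre, and a control without Cre was not analysed here. RNA came from the skin epidermis of newborn mice, 3 per group in the stated design; strain and exact age are not given in the sources used here.

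The p53 protein, the product of Trp53, is a transcription factor that is kept scarce in unstressed cells by the ubiquitin ligase Mdm2, itself a p53 target. When DNA is damaged or other stresses act, p53 escapes this control and raises genes of cell cycle arrest, apoptosis and DNA repair, among them Cdkn1a, which encodes the cyclin-dependent kinase inhibitor p21. Through p21 and the DREAM repressor complex, p53 activity also lowers genes of mitosis. In skin p53 is best known for the response to ultraviolet light, while its relative p63 sustains the basal layer.

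The gene counts summed to 6738720, 11692573 and 11739107 in control 1 to 3 and to 11696252, 6901424 and 12479062 in Trp53 het 1 to 3. Keratinocyte markers were abundant in all 6 libraries. Levels are given as CPM, counts scaled to the size of the library, and ran from 8932 to 9513 for Krt5 of the basal layer, from 26246 to 38188 for Krt1 of the spinous layer and from 4159 to 13126 for Lor of the cornified envelope. Markers of other cell types were low but not absent: the summed level of 11 T cell markers was 29.3 to 43.2 CPM in control and 19.9 to 59.4 in Trp53 het. For 10 fibroblast markers it was 394 to 750 CPM and 433 to 748 CPM, and for 10 melanocyte markers 372 to 597 and 431 to 657 CPM. The highest fibroblast markers were Postn, Vim, Sparc and Dcn, with control means of 223, 148, 111 and 58.2 CPM. The next was Col1a2 at 10.6 CPM, and Col1a1, Col3a1 and Pdgfra were at 2.43, 3.81 and 0.74 CPM in control. Of 6 mast cell markers, 2 were at 0 in all 6 libraries. By the X-linked Xist and 4 Y-linked transcripts, control 1, Trp53 het 1 and Trp53 het 2 were male and the other 3 libraries female.

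Control 3 and the library labelled Trp53 het 3 stood apart from the other 4 libraries and resembled each other. On the first principal component (44.6% of the variance over 12 libraries), control 1 and 2 lay at -62.7 and -41.2 and Trp53 het 1 and 2 at -52.6 and -46.9. Control 3 lay at 11.3 and Trp53 het 3 at 6.89. The difference between replicate 3 and the mean of replicates 1 and 2 had the same sign in both groups in 12125 of the 14582 genes tested (83.2%). Its median size was 0.33 on the log2 scale in control and 0.31 in Trp53 het, against a median size of 0.088 for the change between the groups. These are unlike measures. Replicate 3 was set apart because it differed and is a single library, while the change between the groups compares all libraries of each. A shift shared by replicate 3 of both groups cancels from that change. Both of these libraries were female, as was control 2. On the second principal component (19.3% of the variance) control 2 lay at -10.4, control 3 at -43.9 and Trp53 het 3 at -46.7. The male libraries control 1, Trp53 het 1 and Trp53 het 2 lay at 28.5, 11.1 and 5.48. Whether sex had a part in this was not tested. The labels gave no batch, and the changes of Trp53, Sat2 and the main gene lists are also given without control 3 and Trp53 het 3.

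The targeted gene was measured first. Trp53 (ENSMUSG00000059552, chromosome 11, 69580359 to 69591873 in GRCm38) was at 130, 109 and 123 CPM in control 1 to 3 and at 61.8, 60.9 and 115 CPM in Trp53 het 1 to 3. Trp53 het 1 and 2 lay far below every control library, whereas the library labelled Trp53 het 3 lay inside the control range, against its label. The group levels were 79.2 ± 30.9 CPM in Trp53 het and 121 ± 10.98 CPM in control (SD, n = 3). The log2 change was -0.61 (SE 0.23, 95% interval -1.12 to -0.10), which was not called by edgeR's quasi-likelihood test (unadjusted p = 0.024, adjusted p = 1.00). An exact two-sided permutation test over the 6 libraries gave p = 0.2, where 3 against 3 can give no less than 0.1. Without the library labelled Trp53 het 3 the log2 change was -0.98 with an edgeR adjusted p of 0.729, within a range of 0.729 to 1 over the alternatives. The change was -0.59 without control 3 and -0.96 without both. It ran from -0.98 to -0.44 when any single library was left out. Gene counts do not separate the floxed from the normal allele, nor keratinocytes from other cells of the sample.

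In the Llgl cKO background the contrast was of the same size. Trp53 was at 120, 122 and 112 CPM in Llgl cKO and at 98.3, 67.8 and 65.9 CPM in Llgl cKO Trp53 het, so the groups did not overlap. The log2 change was -0.61 (SE 0.23, 95% interval -1.12 to -0.10, unadjusted p = 0.023, edgeR adjusted p = 0.876). The difference between the contrasts was -0.0041 with an unadjusted p of 0.990.

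**Figure D1:**
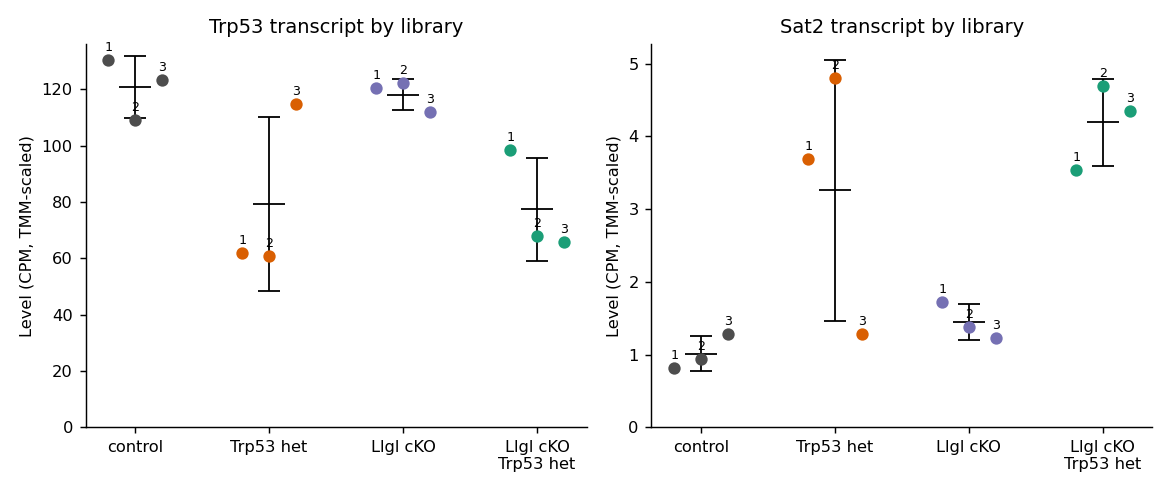
Levels of Trp53 and Sat2 (vertical axes, CPM on TMM-scaled library sizes) in the 12 libraries, with numbered points for replicates and bars for the mean ± SD of 3 libraries. For Trp53, replicates 1 and 2 of Trp53 het lie near 61 CPM and replicate 3 at 115 CPM, within the control range of 109 to 130 CPM. For Sat2 the same library lies at 1.28 CPM, at the control level, with the other Trp53 het libraries at 3.69 and 4.80 CPM.

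Promoter sequences are shown for Trp53, for its best known target and for a neighbouring gene, Sat2, whose levels are given further on. They are the 250 bases before an annotated start of Trp53, Cdkn1a and Sat2, from RefSeq on GRCm38.p6, plus strand. The windows lie at chr11:69580109-69580358, chr17:29090729-29090978 and chr11:69621802-69622051. Capitals mark the CATG cores of a strict form of the p53 binding motif, searched as CATGNNNNNNCATG, which reads the same on both strands.
Trp53: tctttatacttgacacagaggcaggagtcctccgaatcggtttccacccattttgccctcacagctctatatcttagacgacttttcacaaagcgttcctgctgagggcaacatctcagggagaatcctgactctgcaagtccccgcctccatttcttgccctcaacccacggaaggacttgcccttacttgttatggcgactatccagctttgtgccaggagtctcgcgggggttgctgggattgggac
Cdkn1a: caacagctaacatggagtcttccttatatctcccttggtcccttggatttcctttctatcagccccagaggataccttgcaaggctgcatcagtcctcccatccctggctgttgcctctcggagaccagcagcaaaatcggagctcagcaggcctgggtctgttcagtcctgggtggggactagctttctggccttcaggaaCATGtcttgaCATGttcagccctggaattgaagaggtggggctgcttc
Sat2: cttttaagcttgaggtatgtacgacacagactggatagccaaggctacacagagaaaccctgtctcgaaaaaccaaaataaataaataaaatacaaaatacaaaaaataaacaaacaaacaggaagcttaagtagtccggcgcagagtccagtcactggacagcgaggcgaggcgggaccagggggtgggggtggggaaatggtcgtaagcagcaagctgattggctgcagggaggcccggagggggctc
The Cdkn1a window holds the motif with its first base 48 bases before the start used here. The window of another annotated Cdkn1a start, at chr17:29093519-29093768 and not shown, does not hold it. The Trp53 and Sat2 windows do not hold these letters. Among all 32851 promoters in the RefSeq table, 161 hold it (0.49%). Of the 15 genes of p53, its relatives, regulators and targets described next, 12 have a promoter in that table, and only Cdkn1a holds the motif. For the wider target list that is 1 of 39 genes. Only this exact string was searched, and only in these 250 bases. A gene without it may hold p53 sites of another sequence or in another place.

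Across the transcriptome 0 of 14582 genes tested were called between Trp53 het and control at an adjusted p below 0.05 (0%), by edgeR. DESeq2, run on 25878 genes with its own filtering, also called 0. At an unadjusted p below 0.05 there were 63 genes by edgeR (0.432%), where 729 of 14582 are expected by chance, and 68 of 25878 by DESeq2. The edgeR p-values were thinned out at the low end and piled up near 1 in the fit to 12 libraries. With replicate number as a block and only these 6 libraries in the fit, the number was 369 of 13961, the distribution was nearer to even, and 0 genes were called. The precision was uneven over genes. The 95% interval of the change lay within a 1.5-fold change either way for 50.9% of the genes tested, within a 2-fold change for 74.8% and within a 4-fold change for 95.8%. Only 91 genes had a log2 change beyond 1 in either direction, against 535 in the Llgl cKO background. Groups did not overlap for 219 genes that were higher in Trp53 het (1.5%) and 222 that were lower (1.52%).

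**Figure D2:**
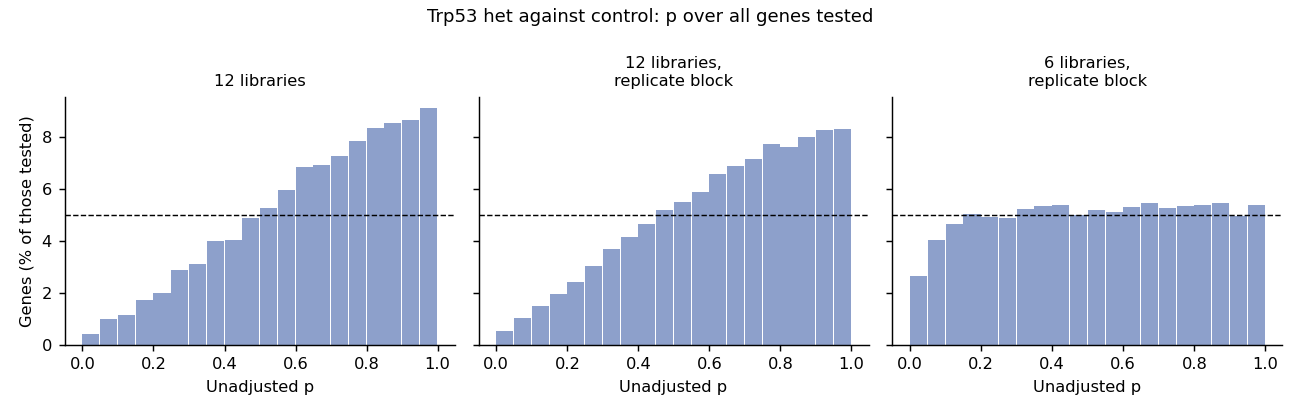
Unadjusted p-values of Trp53 het against control over all genes tested, in bins of 0.05 (horizontal axis), as the percentage of genes per bin (vertical axis); the dashed line marks an even spread over the bins. The lowest bin holds 63 of 14582 genes in the fit to 12 libraries, 75 with replicate number as a block, and 369 of 13961 with the block and only the 6 control and Trp53 het libraries.

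None of the 15 genes of p53, its relatives, regulators and classic targets was called, and for none of them did the groups stay apart (against 3.02% of all genes tested). Of these 15 genes, 4 had a positive and 11 a negative log2 change, with a median of -0.11, against 46.9% positive and a median of -0.0097 over all genes tested. The 11 include Trp53 itself. The median was -0.022 without the library labelled Trp53 het 3, -0.20 without control 3 and -0.17 without both. It was also near 0 without control 1 (-0.0021) or control 2 (-0.044), and was -0.13 without Trp53 het 1 and -0.11 without Trp53 het 2.

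Among the relatives of p53, Trp63, which sustains the epidermal progenitors, was at 236, 346 and 369 CPM in control and 375, 312 and 377 CPM in Trp53 het. Trp73, the third gene of the family, was at 73.7, 66.4 and 56.1 CPM in control and 70.4, 75.6 and 55.5 CPM in Trp53 het. The groups overlapped for both, with log2 changes of 0.16 (95% interval -0.24 to 0.56) and 0.038 (-0.30 to 0.38). Mdm2, the ligase that degrades p53, was at 69.5, 56.3 and 47.6 CPM in control and 59.2, 60.9 and 44.0 CPM in Trp53 het. Mdm4, which binds the activation domain of p53, was at 191, 229 and 190 CPM in control and 179, 195 and 196 CPM in Trp53 het. The log2 changes were -0.078 for Mdm2 (-0.42 to 0.26) and -0.099 for Mdm4 (-0.45 to 0.25), and both intervals include 0.

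Targets of cell cycle arrest were lowest in replicate 3 of both groups. Cdkn1a was at 574, 498 and 324 CPM in control 1 to 3 and at 539, 492 and 337 CPM in Trp53 het 1 to 3. The gap between replicates within a group was wider than that between the groups, and the change between groups was -0.029 (95% interval -0.55 to 0.49). Ccng1, encoding cyclin G1, was at 40.4, 45.1 and 33.9 CPM in control and 34.8, 41.0 and 32.2 CPM in Trp53 het. Plk3, a polo-like kinase of the stress response, was at 288, 196 and 99.0 CPM in control and 238, 196 and 90.3 CPM in Trp53 het. The groups overlapped for both genes, with log2 changes of -0.15 and -0.15.

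The pro-apoptotic targets Bbc3, Pmaip1, Phlda3 and Fas were likewise lowest in replicate 3 of each group. Bbc3, which encodes the BH3-only protein PUMA, was at 15.7, 9.95 and 5.88 CPM in control and 11.5, 9.30 and 4.74 CPM in Trp53 het. Its log2 change of -0.29 had an interval from -1.18 to 0.60, which covers both a lower and a higher level. Pmaip1, encoding NOXA, was at 29.8, 26.2 and 12.7 CPM in control and 17.4, 26.5 and 12.8 CPM in Trp53 het. Phlda3, an inhibitor of Akt signalling, was at 78.3, 60.7 and 29.3 CPM in control and 59.8, 55.2 and 29.7 CPM in Trp53 het. Bax, which permeabilises mitochondria, varied little, from 26.5 to 30.4 CPM in control and from 24.9 to 27.8 CPM in Trp53 het, with a log2 change of -0.12 (-0.38 to 0.14). Fas, a death receptor, was at 7.69, 5.27 and 1.45 CPM in control and 3.88, 5.81 and 1.81 CPM in Trp53 het.

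The remaining panel genes gave the same picture of overlap. Perp, a desmosomal p53 and p63 target, was at 2722, 3129 and 2785 CPM in control and 3274, 2904 and 2672 CPM in Trp53 het. Sesn2, which restrains the growth kinase mTORC1, was at 69.5, 49.2 and 36.4 CPM in control and 51.1, 50.3 and 34.9 CPM in Trp53 het. Aen, an apoptosis-enhancing nuclease, was at 61.5, 56.3 and 52.6 CPM in control and 55.1, 52.3 and 50.2 CPM in Trp53 het. In both of these targets replicate 3 was the lowest of its group. Zmat3, an RNA-binding zinc finger protein, was highest in replicate 3 instead, at 58.2 CPM in control and 60.0 CPM in Trp53 het. Eda2r, an ectodysplasin receptor, was near the limit of measurement, at 1.47 to 3.49 CPM in control and 1.66 to 2.03 CPM in Trp53 het.

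**Figure D3:**
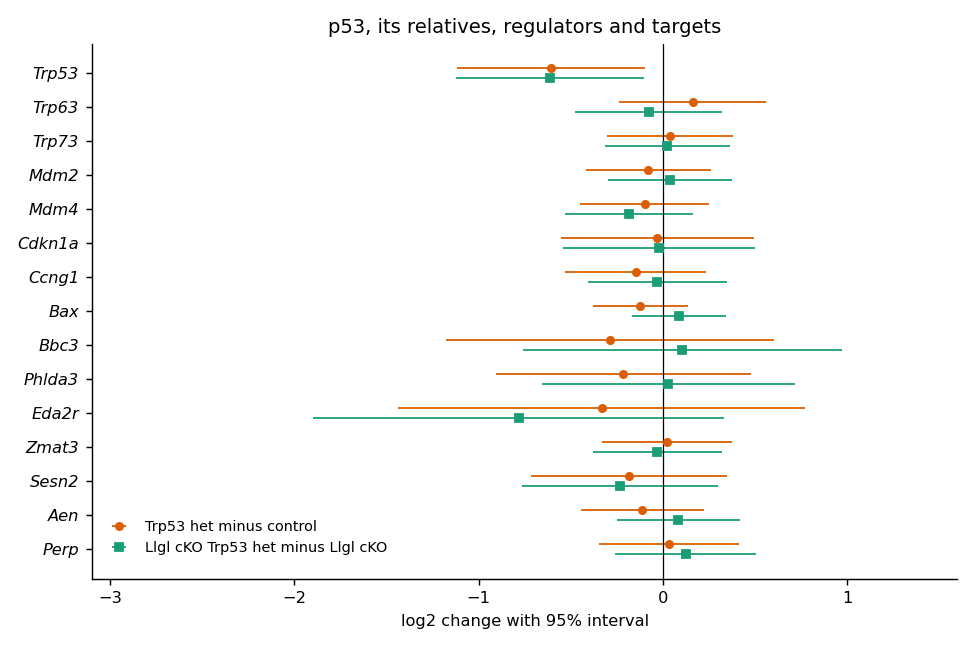
Log2 change (horizontal axis) with 95% interval of 15 genes of the p53 pathway, for Trp53 het minus control (circles) and Llgl cKO Trp53 het minus Llgl cKO (squares). Only the intervals of Trp53 leave out 0, in both contrasts (-1.12 to -0.10 in each), and 0 of the 15 genes were called in Trp53 het against control.

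The wider list of p53 target genes showed the same. Of 50 listed genes 47 passed the filter on low counts, and 19 were higher and 28 lower in Trp53 het, with 0 called. Genes without overlap numbered 0, against 3.02% of all genes tested, and nothing particular to the list is read from that count. Log2 changes ran from -0.53 to 0.30 with a median of -0.078, and when a single library was left out the median ran from -0.12 (without control 3) to 0.023 (without control 1). It was -0.0066 without the library labelled Trp53 het 3 and -0.12 without it and control 3. Steap3, a ferrireductase that had the smallest unadjusted p of the list (0.145), was at 6.21, 6.97 and 7.58 CPM in control and 4.62, 3.92 and 6.78 CPM in Trp53 het. Here again the library labelled Trp53 het 3 was the one inside the control range. Of 28 measured regulators and partners of p53, 14 were higher and 14 lower, with a median of 0.0014 and 0 called. Rpl11, a ribosomal protein that binds Mdm2, had the smallest unadjusted p among them (0.301), with 310 to 417 CPM in control and 319 to 338 CPM in Trp53 het.

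Genes of mitosis that p53 represses through DREAM differed more between replicates than between Trp53 het and control. All 30 had a positive log2 change in Trp53 het, from 0.030 to 0.31 with a median of 0.15, but 0 were called. The groups overlapped for all 30, where 3.02% of all genes tested were without overlap. Mki67, a proliferation marker, was at 50.04, 80.6 and 369 CPM in control and 65.8, 64.7 and 433 CPM in Trp53 het. With the average of the 12 libraries set to 0, the list stood at -1.44, -1.05 and 0.81 on the log2 scale in control 1 to 3 and at -1.25, -1.16 and 1.03 in Trp53 het 1 to 3. The step to replicate 3 was thus larger than any difference between the genotypes. The median of the list was 1.17 without control 3, -1.07 without the library labelled Trp53 het 3 and -0.0099 without both, and it was also below 0 without control 1 (-0.18) or control 2 (-0.13). In the Llgl cKO background all 30 were higher as well, with a median of 0.40, 0 called and 16 without overlap, where 5.84% of all genes were higher without overlap. S phase and DNA replication genes had 9 of 26 higher and a median of -0.023, which was 0.71 without control 3, -0.74 without the library labelled Trp53 het 3 and 0.036 without both. Their levels were -1.13, -0.38 and 0.87 in control and -0.67, -0.63 and 0.81 in Trp53 het, on the same relative log2 scale.

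**Figure D4:**
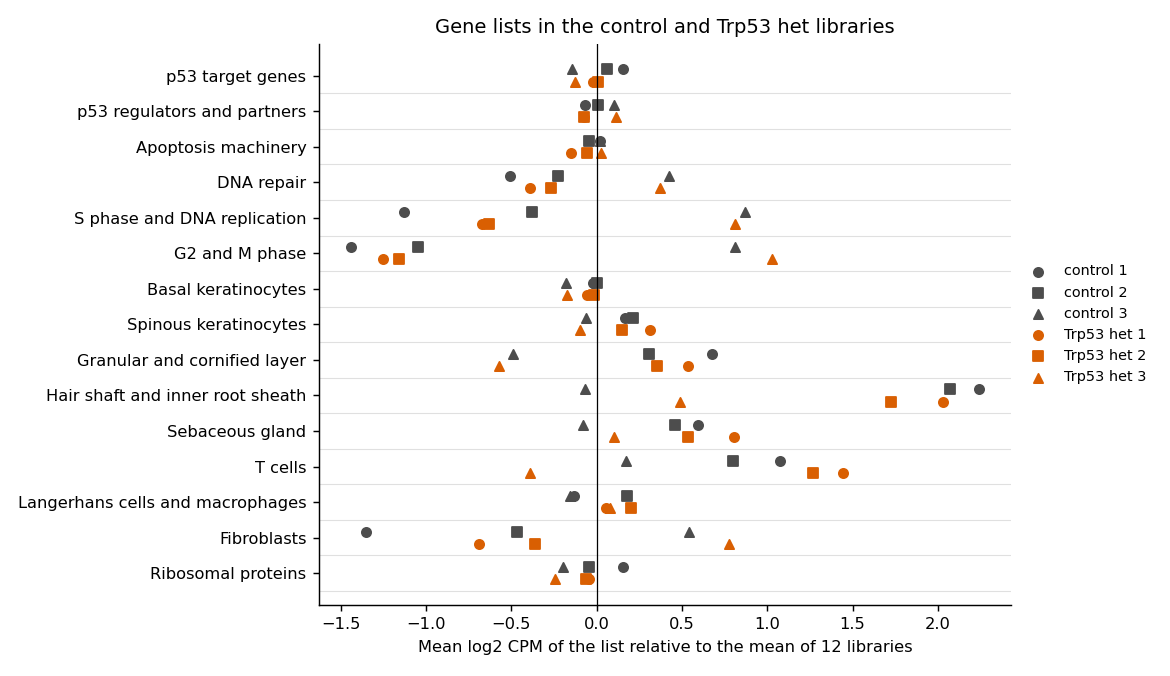
Mean log2 CPM of the measured genes of 15 lists, relative to the mean of 12 libraries (horizontal axis), for the 3 control and the 3 Trp53 het libraries; symbols mark replicates 1, 2 and 3. In G2 and M phase genes replicate 3 lies at 0.81 in control and 1.03 in Trp53 het, with replicates 1 and 2 of both groups between -1.44 and -1.05.

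Epidermal differentiation lists had their largest differences between replicates as well. In bulk tissue, fewer cells of a type and less RNA per cell cannot be told apart. Of 24 genes of the granular and cornified layer 7 were higher and 17 lower, with a median of -0.086 and 0 called. Of these genes 0 were without overlap, against 3.02% of all genes tested. The median turned positive without the library labelled Trp53 het 3 (0.11) or control 1 (0.16), and was -0.31 without control 3 and -0.084 without control 3 and Trp53 het 3. Lor, the main protein of the cornified envelope, was at 13126, 6595 and 4159 CPM in control and 11699, 6629 and 4749 CPM in Trp53 het. Replicate 3 had the lowest Lor level in both groups, and the groups covered nearly the same range. Casp14, a protease of filaggrin processing, had the smallest unadjusted p of the list, at 918, 872 and 804 CPM in control and 1145, 1045 and 788 CPM in Trp53 het. Basal keratinocyte genes had 5 of 15 higher, and spinous genes 7 of 12, with medians of -0.029 and 0.037.

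Skin appendage genes mostly shared a sign, with overlapping groups. Of 24 measured hair shaft and root sheath genes, 23 were lower in Trp53 het, with a median of -0.13 and 0 called. The groups overlapped for all 24, where 3.02% of all genes tested were without overlap. That median turned positive without control 1 (0.26), control 2 (0.042) or the library labelled Trp53 het 3 (0.22), and was -0.55 without control 3, -0.47 without Trp53 het 1 and -0.21 without control 3 and Trp53 het 3. Krt33b, a hair keratin, was at 43.8, 43.4 and 6.53 CPM in control and 32.04, 18.02 and 10.1 CPM in Trp53 het. Of 14 sebaceous gland genes 12 were higher, with a median of 0.14, which turned negative without control 3 (-0.057) or Trp53 het 1 (-0.066) and was 0.16 without control 3 and Trp53 het 3. Fasn, the fatty acid synthase, was at 410, 344 and 353 CPM in control and 461, 438 and 377 CPM in Trp53 het. For both lists replicate 3 was the lowest library of its group on the relative scale. In the Llgl cKO background, the same contrast had medians of -3.15 for the hair shaft genes and -0.86 for the sebaceous genes.

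Markers of some other cell types moved with replicate 3 too, and their part in the results was not tested. The relative log2 level of T cell markers was 1.08, 0.80 and 0.17 in control and 1.44, 1.27 and -0.39 in Trp53 het, and of fibroblast markers -1.35, -0.47 and 0.54 against -0.69, -0.36 and 0.77. These levels average only markers that passed the filter on low counts, 10 of 11 for T cells and 9 of 10 for fibroblasts. For adipocytes only 2 of 6 passed, Fabp4 and Retn. The level of these 2 adipocyte markers was 2.90, 1.91 and -0.76 in control and 2.27, 1.88 and -0.46 in Trp53 het. In each of these lists replicate 3 stood on the same side of replicates 1 and 2 in both groups. This did not hold for erythroid markers, where replicate 3 differed from the mean of replicates 1 and 2 by -1.35 in control and 0.40 in Trp53 het. Nor did it hold for neutrophil (-0.18 and 0.15) or Schwann cell markers (0.02 and -0.23). These levels rest on 2 of 7 erythroid markers, 1 of 8 neutrophil markers (Csf3r) and 4 of 6 Schwann cell markers. Cd3e of the T cell receptor complex was at 3.27, 2.72 and 1.37 CPM in control and 5.63, 6.25 and 0.98 CPM in Trp53 het. Hbb-bs, an adult beta globin, did not overlap, with 0.24 to 0.82 CPM in control and 0.92 to 5.57 CPM in Trp53 het (log2 change 2.57, unadjusted p = 0.0082, edgeR adjusted p = 1.00). The library labelled Trp53 het 3 held the highest of these globin values. Isl1, a Merkel cell transcription factor, did not overlap either, with 0.43 to 0.56 CPM in control and 0.75 to 1.89 CPM in Trp53 het (1.18, edgeR adjusted p = 1.00).

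In the glycolysis and ribosomal protein lists the genes shared a sign with all 6 libraries in the fit. Their changes were small, and the sign of each median rested on single libraries. All 15 glycolysis genes were higher in Trp53 het, with a median of 0.059 and a largest change of 0.15, and the groups of Gpi1 alone did not overlap (182 to 195 CPM in control, 197 to 202 CPM in Trp53 het). The median of the glycolysis genes was -0.0017 without control 2 and 0.0015 without the library labelled Trp53 het 3. All 16 ribosomal protein genes were lower, with a median of -0.094, which was 0.0014 without control 1 and -0.18 without control 3. Rpl3 and Rps2 did not overlap between groups, Rps2 having 831 to 848 CPM in control and 777 to 826 CPM in Trp53 het. Antioxidant genes did not share a sign: of 18, 5 were higher and 13 lower, with a median of -0.14. That median stayed below 0 when any single library was left out, but was only -0.017 without control 1 and -0.020 without Trp53 het 2. Cat, the catalase gene, was the exception without overlap, at 143, 187 and 193 CPM in control and 214, 213 and 208 CPM in Trp53 het (log2 change 0.28, edgeR adjusted p = 1.00). In each of these lists 0 genes were called. Genes without overlap numbered 1 of 15, 2 of 16 and 1 of 18, against 1.5% higher and 1.52% lower over all genes tested, and nothing particular to the lists is read from them.

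The genes of smallest unadjusted p with a group mean of 5 CPM or more on either side and no overlap between the groups are described next, all of them not called. Ap3m2 and Hoxc5 reached that mean only in the group where they were higher. On the higher side, Bcl9l, a coactivator of beta-catenin, was at 161, 150 and 166 CPM in control and 214, 181 and 195 CPM in Trp53 het, a log2 change of 0.31 (SE 0.12). Dvl3, a Dishevelled protein that relays Wnt signals, was at 55.6, 50.9 and 59.5 CPM in control and 66.3, 63.7 and 65.3 CPM in Trp53 het. Spen, a transcriptional corepressor, was at 117, 109 and 121 CPM in control and 141, 139 and 136 CPM in Trp53 het. In these genes the library labelled Trp53 het 3 lay above every control library, which the choice of genes without overlap required. Dag1, encoding the matrix receptor dystroglycan, was at 252, 250 and 269 CPM in control and 297, 293 and 298 CPM in Trp53 het. Slc6a2 (a noradrenaline transporter, log2 change 0.44), Zmiz1 (a transcriptional coactivator, 0.28), Pcgf6 (a Polycomb protein, 0.31), Gltscr1 (a chromatin remodelling subunit, 0.33), Pcdhgc3 (a protocadherin, 0.27) and Ap3m2 (a vesicle adaptor subunit, 0.49) completed the 10. Bcl9l, Dvl3, Spen, Zmiz1, Gltscr1 and Pcdhgc3 overlap other annotated genes, and the strand setting of the counting is not given in the sources used here.

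On the lower side, Abcg2, an efflux transporter, was at 13.2, 17.4 and 14.8 CPM in control and 10.8, 10.8 and 10.99 CPM in Trp53 het, a log2 change of -0.48 (SE 0.17). Npc2, a lysosomal cholesterol carrier, was at 127, 114 and 111 CPM in control and 97.9, 102 and 94.5 CPM in Trp53 het. Ctsz, the protease cathepsin Z, was at 38.8, 27.5 and 25.6 CPM in control and 22.4, 21.1 and 21.3 CPM in Trp53 het. In each of these genes the spread within Trp53 het was smaller than the gap to the lowest control library. Pdlim1, a cytoskeletal adaptor, was at 63.1, 60.1 and 57.2 CPM in control and 44.0, 50.3 and 53.1 CPM in Trp53 het. Zfp653 (-0.51), Spg21 (-0.23), Polr2d, an RNA polymerase II subunit (-0.30), the homeobox gene Hoxc5 (-0.52), Fam185a (-0.38) and Ypel1 (-0.38) completed the 10 on the log2 scale. Zfp653, Ctsz, Spg21, Hoxc5 and Ypel1 overlap other genes. Unadjusted p-values of the 20 genes ran from 0.015 for Abcg2 to 0.066 for Dag1, and every edgeR adjusted p was 1.00.

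A gene beside Trp53 gave the smallest unadjusted p of the whole comparison, and it was singled out after its values were seen. Sat2, encoding a homologue of spermidine acetyltransferases (ENSMUSG00000069835, chromosome 11, 69622024 to 69623870 in GRCm38), starts 41.7 kb from the start of Trp53. It was at 0.82, 0.94 and 1.29 CPM in control 1 to 3 and at 3.69, 4.80 and 1.28 CPM in Trp53 het 1 to 3, from 5, 11 and 16 counts and 40, 33 and 17 counts. The library labelled Trp53 het 3 was thus at the control level for Sat2 as it was for Trp53. The log2 change was 1.61 (SE 0.44, 95% interval 0.64 to 2.57, unadjusted p = 0.0036, edgeR adjusted p = 1.00), and an exact two-sided permutation test gave p = 0.2. Without the library labelled Trp53 het 3 it was 2.01 with an edgeR adjusted p of 0.729, within a range of 0.654 to 1 over the alternatives. The Sat2 change was 1.83 without control 3 and 2.23 without both. It ran from 1.25 to 2.01 when any single library was left out.

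The Llgl cKO background gave a second reading of Sat2 in separate mice. It was at 1.72, 1.38 and 1.23 CPM in Llgl cKO and at 3.53, 4.70 and 4.35 CPM in Llgl cKO Trp53 het, so every library with the floxed Trp53 allele exceeded every library without it there. The log2 change was 1.52 (SE 0.41, unadjusted p = 0.0030, edgeR adjusted p = 0.668), and the exact permutation p of 0.1 is the smallest that 3 against 3 can give. Other neighbours of Trp53 had smaller changes. Wrap53, which lies beside the start of Trp53 on the opposite strand, was at 17.2, 13.0 and 18.1 CPM in control and 13.5, 13.4 and 16.0 CPM in Trp53 het. Fxr2, an RNA-binding protein gene 52.6 kb from Trp53, was at 136, 108 and 92.9 CPM in control and 119, 118 and 93.9 CPM in Trp53 het. Of 51 genes tested within 0.5 Mb of Trp53, only Efnb3, an ephrin, was without overlap, at 3.32 to 3.95 CPM in control and 4.07 to 4.52 CPM in Trp53 het, a share below the 3.02% of all genes tested. The median log2 change of the 51 was -0.0087. Within 2 Mb the median over 103 genes was -0.0050.

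**Figure D5:**
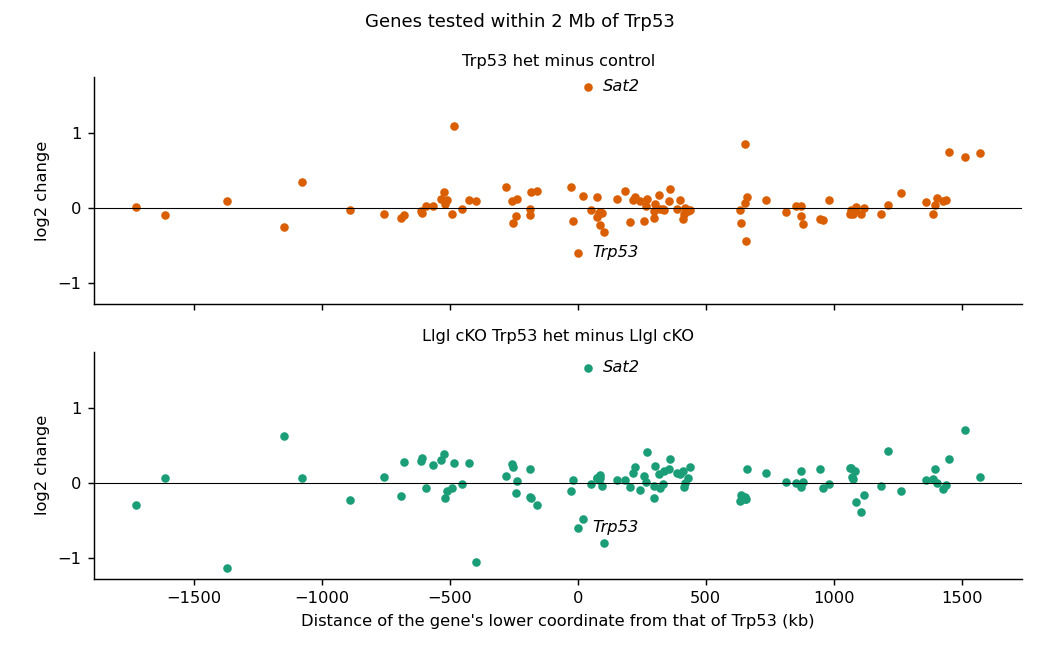
Log2 change (vertical axes) of genes tested within 2 Mb of Trp53 against distance from Trp53 in kb (horizontal axis), for Trp53 het minus control (top) and Llgl cKO Trp53 het minus Llgl cKO (bottom). Sat2, 41.7 kb from Trp53, lies at 1.61 and 1.52, and Trp53 itself at -0.61 in both.

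The contrast in the Llgl cKO background shares no library with the main one. In Llgl cKO Trp53 het against Llgl cKO, edgeR called 0 genes (0%) with 747 at an unadjusted p below 0.05 (5.12%), while DESeq2 called 51, 4 higher and 47 lower. A test of the difference between the contrasts called 0 genes by edgeR (428 at an unadjusted p below 0.05, 2.94%) and 0 by DESeq2 (522). Groups did not overlap in that background for 1600 genes (11%), 852 higher (5.84%) and 748 lower (5.13%), and 49.8% of log2 changes there were above 0. In Trp53 het against control the share without overlap was 3.02%. Of the 14582 genes tested, 16 were without overlap in both contrasts in the same direction, 10 higher and 6 lower, and 43 in opposite directions. Whether these counts differ from those of unrelated contrasts was not tested, and nothing particular to the genes is read from them. Among the 16 was Pard6a, a polarity gene of the Par complex, at 5.23, 4.42 and 4.997 CPM in control and 5.72, 5.67 and 5.57 CPM in Trp53 het. In the Llgl cKO background it was at 4.12, 4.45 and 3.52 CPM with both alleles and 4.79, 5.55 and 5.27 CPM with the floxed Trp53 allele. Its log2 changes were 0.21 and 0.37, neither of them called. Of the 15 p53 pathway genes, Trp53 alone had groups without overlap in the Llgl cKO background.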

How the data were processed

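Total RNA from the epidermis of newborn mice was made into stranded mRNA libraries, per the labels. The authors deposited raw counts per gene, and their processing notes name STAR, featureCounts 1.6.4, DESeq2 2.11.40.8 and GRCm38. The annotation release, strand setting and filters are not given in the sources used here. The table held 46078 genes, 14582 of which were tested and 14532 of these matched a GRCm38 annotation.

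The analysis used edgeR 4.0.16 under R 4.3.3: TMM scaling, filterByExpr over the 4 groups (minimum count 10), and a robust quasi-likelihood fit of 4 group means to 12 libraries (8 residual degrees of freedom, biological coefficient of variation 23.8%). A call required a p below 0.05 after Benjamini-Hochberg adjustment over every tested gene. Where no tool is named, the adjusted p is edgeR's. Standard errors are the log2 change divided by the square root of F. Levels are CPM on TMM-scaled sizes. Relative list levels are means of log2 CPM (prior count 2), and lists are described by counts and medians without a test. The scripts were tested on simulated counts.

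The named genes were the 15 of the p53 panel, the 10 higher and 10 lower genes of smallest unadjusted p with a group mean of 5 CPM or more and no overlap (since 0 were called), and the member of smallest p of each other list with at least 3 genes tested. In all 43 lists with 625 symbols were used. The members and lists were chosen with earlier results of these data known. Other genes given with values are list members used as examples or were chosen after their values were seen.

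Replicate numbers pair control and Trp53 het by their deviations from the group means, which correlated across genes at 0.62, 0.21 and 0.82 for numbers 1 to 3. Unmatched numbers also correlated, control 1 with Trp53 het 2 at 0.46 and control 2 with Trp53 het 1 at 0.18, so mainly replicate 3 stands against the other numbers. In the Llgl cKO background they correlated at -0.17, -0.35 and 0.03, so those numbers do not pair. The labels state no pairing. Alternatives were DESeq2 1.42.0, other scalings and filters, a fit to the compared groups alone, a term for sex, the replicate block, and libraries left out. Levels near 1 CPM rest on few counts, so their changes have wide intervals.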

Additional observations from a re-analysis of the deposited data

Results flagged for a closer look

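Of the named genes, 6 had groups without overlap in both Trp53 contrasts but in opposite directions, and none of these differences was called (edgeR adjusted p = 1.00 for each). The log2 difference, the contrast in the Llgl cKO background minus that against control, was -0.53 for Spen, -0.59 for Dvl3 and -0.74 for Ap3m2, which were higher in Trp53 het and lower in Llgl cKO Trp53 het. It was 0.46 for Npc2, 0.67 for Pdlim1 and 0.70 for Ypel1, which were lower in Trp53 het and higher in Llgl cKO Trp53 het. These genes were named for the absence of overlap in Trp53 het against control. The 6 were then picked for the opposite direction without overlap in the Llgl cKO background. Both contrasts thus entered the choice, so neither is separate support for a difference. Over all 14582 genes tested, 43 were without overlap in both contrasts in opposite directions and 16 in the same direction. Dvl3 was at 63.9, 65.6 and 66.3 CPM in Llgl cKO and at 53.5, 53.2 and 46.5 CPM in Llgl cKO Trp53 het. Pdlim1 was at 56.8, 54.6 and 66.8 CPM in Llgl cKO and at 67.0, 77.5 and 87.3 CPM in Llgl cKO Trp53 het.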

How the results depend on the processing

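The count of 0 genes called in Trp53 het against control held under every alternative but leaving out control 3, alone or with Trp53 het 3, which gave 1 gene. That gene was the pseudogene Eif5al3-ps (log2 changes 5.22 and 5.28, edgeR adjusted p 0.033 and 0.045), at 2, 0 and 78 counts in control and 52, 34 and 59 in Trp53 het. Leaving out single libraries gave 0 to 1 genes there and 0 to 1 in the Llgl cKO background (Cyp2g1 without Llgl cKO 3, BC002163 without Llgl cKO Trp53 het 3). In that background DESeq2 called 51 genes, and leaving out control 3 and Trp53 het 3 from the shared fit gave 1 (Cyp24a1). With the replicate block, 0 genes were called in each contrast, and the Trp53 change was -0.62 (12 libraries) or -0.65 (6 libraries), so the pairing changed no call. Leaving out 1 library turned the sign of some small changes, none of them called, over these ranges: Trp63 -0.0021 to 0.29, Trp73 -0.061 to 0.16, Mdm2 -0.20 to 0.078, Cdkn1a -0.23 to 0.16, Bbc3 -0.58 to 0.11, Phlda3 -0.53 to 0.10, Eda2r -0.54 to 0.19, Zmat3 -0.068 to 0.11, Sesn2 -0.38 to 0.088, Perp -0.040 to 0.10, Ttk -0.51 to 0.82, Rfc4 -1.03 to 0.16 and Egf -0.49 to 0.63. Egf was -0.27 without control 3 and Trp53 het 3. The cause was not tested. With 3 mice per group, changes under 2-fold lay inside the interval of many genes.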

Other observations

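Cyp24a1, the enzyme that degrades active vitamin D, was chosen after its values were seen. It was at 1.47, 1.36 and 4.27 CPM in control, 1.02, 1.31 and 3.84 CPM in Trp53 het and 1.92, 2.70 and 1.94 CPM in Llgl cKO, but had only 1, 1 and 2 counts in the Llgl cKO Trp53 het libraries. In control and Trp53 het the level was highest in replicate 3, and the groups overlapped. Eif5al3-ps had 34 to 142 counts in every library except control 1 and control 2, which had 2 and 0. Per1, a repressor of the circadian clock that lies within 0.5 Mb of Trp53, was also chosen after its values were seen. It was at 75.2, 57.9 and 55.5 CPM in control and 261, 69.8 and 71.4 CPM in Trp53 het, so that a single library carried the log2 change of 1.10 (edgeR adjusted p = 1.00).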
